A study of Rattus norvegicus with 23 samples.

Results

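The microRNA miR-135b was followed across rat mammary carcinomas and normal mammary tissue. It is 1 of 350 miRNAs named on the array, and it was chosen because earlier values from these same arrays had shown it to be higher in radiation-induced than in spontaneous carcinomas. Its differences between the groups are therefore given as a description, with no test. Spots carrying its name, rno-miR-135b, were taken by that name alone. They are 20 spots of 2 probes, 10 spots each.

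The arrays measured 8 mammary carcinomas that arose spontaneously, 8 that were radiation-induced and 7 normal mammary tissues, all from female Sprague-Dawley rats, an outbred strain prone to mammary tumours. The design set out to find miRNA patterns that mark the radiation-induced carcinomas. The labels give neither the age of the animals nor the kind or dose of radiation, nor whether each normal tissue is from an animal of its own. Total RNA from each tissue was labelled with the dye Cy3 and hybridised to 1 array, so each carcinoma is measured once.

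MicroRNAs are short RNAs cut from a hairpin precursor. They pair with messenger RNAs mainly through the seed, a stretch near the 5′ end, and lower the amount or the translation of those messengers. In human cells miR-135b and its relative miR-135a target APC, the brake on Wnt signalling, and miR-135b has been found raised in colorectal carcinomas and studied in basal-like breast carcinomas. In mouse bone-forming cells the miR-135 family also targets Runx2, a transcription factor of bone that mammary epithelium uses too.

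The mature sequences are shown because the seed, in capitals (bases 2 to 8), defines the family, and because 1 base separates the 2 close relatives that the array measures with different probes. Sequences and positions are from RefSeq on rat build GRCr8, and each is written 5′ to 3′.
rno-miR-135b-5p: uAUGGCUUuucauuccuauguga
rno-miR-135a-5p: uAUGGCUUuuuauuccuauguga
rno-miR-135b-3p: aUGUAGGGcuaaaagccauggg
rno-miR-135a-3p: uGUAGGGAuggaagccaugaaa

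The 5p arm of miR-135b lies at chr13:46191033-46191055 on the plus strand, and that of miR-135a at chr7:28499221-28499243 on the minus strand. The 5p arms share 22 of 23 bases and the whole seed. Their single difference is C11U, with the base of miR-135b first and positions counted from 1 at the 5′ end. Among 724 mature rat miRNAs in the RefSeq table, 2 carry this seed, which are these 5p arms. The array's name for miR-135b gives no arm. In naming of that period an unmarked name stood for the arm now called 5p, and the opposite arm carried a star.

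The hairpin is shown to place the 5p arm, in capitals, within its precursor of 97 bases at chr13:46191018-46191114 on the plus strand.
Mir135b hairpin: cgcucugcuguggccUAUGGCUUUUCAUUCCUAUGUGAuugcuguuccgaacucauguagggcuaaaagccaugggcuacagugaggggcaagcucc

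In the RefSeq table Mir135b lies within the spans of Lemd1, a LEM domain gene, and Blacat1, a long non-coding RNA gene named for bladder cancer. The nearest protein-coding genes on either side are Cdk18, a cyclin-dependent kinase gene, and Klhdc8a. None of these genes was measured on a miRNA array.

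Before the values, 2 facts about the arrays bear on them. Brightness, each array's 75th percentile of signal over the 199 probes detected on all 23 arrays, ran from 335 to 936 on spontaneous, from 729 to 2032 on radiation-induced and from 960 to 2494 on normal arrays. The arrays of spontaneous carcinomas therefore reached less deeply into low signals, and scaling each array to a common brightness does not restore what lay in their background. Radiation-induced carcinoma 3 and spontaneous carcinoma 1 lacked all 5 members of the epithelial miR-200 family on the array, which were detected in the other 14 carcinomas and in all normal tissues. Values without these samples are given for the level of miR-135b, for its correlations within the radiation-induced carcinomas and for the lists of related miRNAs.

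The signal of miR-135b was highest in the radiation-induced carcinomas, low in the spontaneous ones and within background in normal tissue. Its scaled signal, the background-subtracted brightness of probe A_26_P00001148 after each array was scaled by its brightness, had a lowest value of -0.00386, a median of 47.7 and a highest value of 264 in the radiation-induced carcinomas. In the spontaneous carcinomas the lowest value was 1.93, the median 3.65 and the highest 22.2. In normal tissue it ran from 0.865 to 3.66, with a median of 2.15. The normal values overlapped those of the lower spontaneous carcinomas, and 6 of 8 radiation-induced values lay above every spontaneous one.

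The single arrays show how far the carcinomas differ. Radiation-induced carcinoma 6 had the highest scaled signal, 264, followed by carcinoma 8 at 135, carcinoma 7 at 97.4, carcinoma 5 at 54.5, carcinoma 2 at 40.9 and carcinoma 4 at 29.7. Carcinoma 1 was low at 11.5, and carcinoma 3 gave no signal. Both of these lay below the highest spontaneous carcinoma, so the 2 kinds of carcinoma overlap. Among the spontaneous carcinomas, sample 5 reached 22.2, sample 6 reached 16.4 and sample 2 reached 16.2. The other 5 spontaneous carcinomas lay between 1.93 and 4.13, close to the normal tissues.

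Detection followed the same order. A probe counts as detected where the scanner software flagged most of its usable spots (those without an outlier mark) as well above background. By this measure miR-135b was detected in 7 of 8 radiation-induced carcinomas, 1 of 8 spontaneous carcinomas and 0 of 7 normal tissues. In radiation-induced carcinomas 2 and 4 to 8 every usable spot of both probes was well above background. Carcinoma 1 was at the edge, with 7 of 10 spots of the brighter probe, and carcinoma 3 had 0 of 10. Spontaneous carcinoma 5, the detected one, had 8 of 9 spots, while carcinomas 6 and 2 had 5 of 10 and 4 of 10 and so were not counted.

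**Figure D1:**
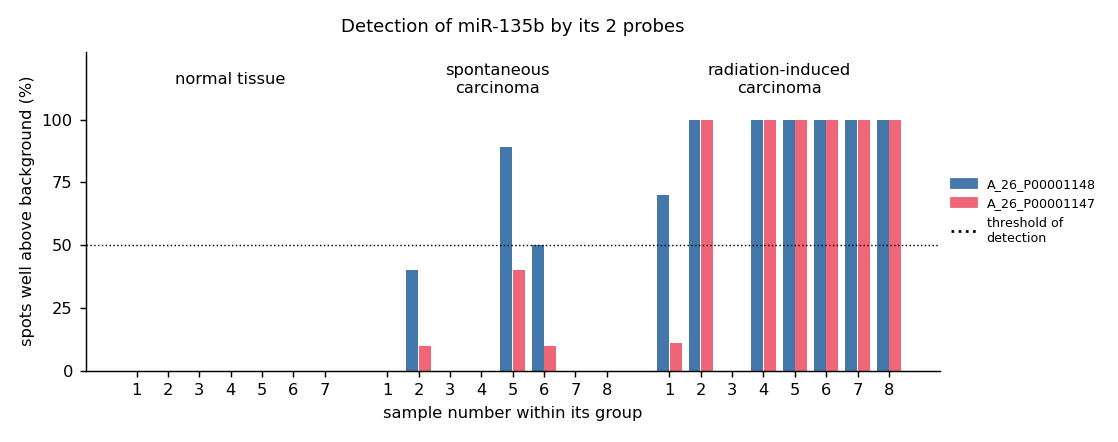
Percent of the spots of each miR-135b probe that were well above background (vertical axis) on each array, numbered within its group, with the 2 probes as bars side by side and the threshold of detection as a dotted line. The bars reach the top in radiation-induced carcinomas 2 and 4 to 8, stand partly raised in carcinoma 1 and in spontaneous carcinomas 2, 5 and 6, and are at 0 on every other array.

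The measure of detection mattered for the spontaneous carcinomas. The scanner software's own flag for the whole miRNA gave 7, 3 and 0 arrays in the radiation-induced, spontaneous and normal groups. Counting an array with at least 1 spot of either probe well above background, outlier-marked spots included, gave 7 of 8, 4 of 8 and 1 of 7. Asking for both probes gave 6 of 8, 0 of 8 and 0 of 7. A sample that was not detected may still hold miR-135b below what its array could show. The lowest signal well above background, on the scaled signal, was 12.0 to 29.7 on spontaneous arrays, against 3.74 to 14.1 on radiation-induced and 3.90 to 9.56 on normal ones. Spontaneous carcinoma 6, at 16.4 with 5 of 10 spots passing, lay above its own array's limit of 13.9 without being counted as detected.

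On the log2 scale, with signals floored at 3.30 (the median of the limits just given, 9.82 before the log), the mean level was 5.57 ± 1.66 (SD, n = 8) in radiation-induced carcinomas, with a median of 5.56. It was 3.63 ± 0.48 (SD, n = 8) in spontaneous carcinomas, of which 5 stood at the floor, and all 7 normal tissues stood at the floor. Levels in the radiation-induced carcinomas thus spanned the whole distance from the floor to 8.05, a wider spread than in the other groups, whose values the floor compresses. In samples of whole tissue, fewer cells that hold the miRNA and less of it per cell cannot be told apart.

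**Figure D2:**
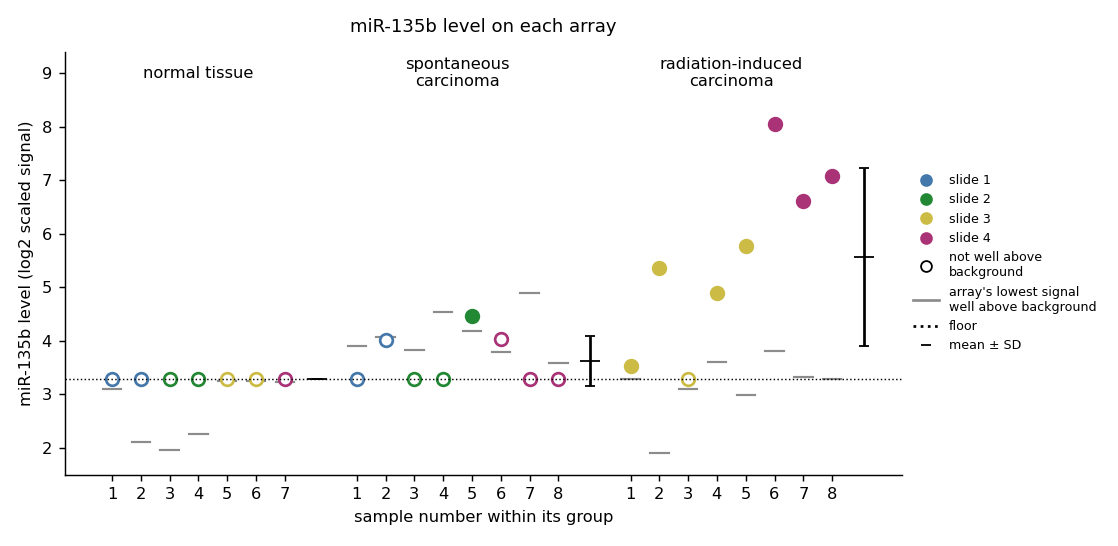
Level of miR-135b (vertical axis, log2 scaled signal) on each array, coloured by slide, with open circles where it was not well above background, grey bars at each array's lowest signal well above background, the floor as a dotted line and black marks for mean ± SD. All normal tissues and 5 of 8 spontaneous carcinomas sit at the floor of 3.30, and the 3 highest samples are radiation-induced carcinomas 6, 8 and 7, all on slide 4.

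Spots of the same array agreed closely where the signal was high. The coefficient of variation over the spots of the brighter probe ran from 1.04% to 22.98% over the 7 radiation-induced carcinomas in which it was detected, with the highest in carcinoma 1. It was 17.2% in spontaneous carcinoma 5. The differences between carcinomas 2 and 4 to 8 are therefore far wider than the spread between their spots, which is a technical spread only.

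The second probe, A_26_P00001147, was dimmer and gave the same order of groups. Its mean level was 5.12 ± 1.48 (SD, n = 8) in radiation-induced carcinomas and 3.44 ± 0.26 (SD, n = 8) in spontaneous ones, with all normal tissues at the floor. Again 6 of 8 radiation-induced carcinomas lay above every spontaneous one, and carcinoma 6 was the highest, with a scaled signal of 172. This probe was detected in 6 radiation-induced carcinomas and in none of the other arrays, since only 4 of 10 of its spots passed in spontaneous carcinoma 5. The probes share each array and its RNA, so they are no independent replicates of the tissue.

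Between the kinds of carcinoma, the difference of mean levels was log2 1.95 ± 0.49 (SE of the model over all arrays), or 3.85-fold on the floored scale. As 7 of 8 spontaneous arrays did not detect the miRNA, a fold against their own limits is also given, which was 2.64-fold (log2 1.40) with radiation-induced levels kept as they were. With every signal below its own array's lowest signal well above background set to that limit in both groups, the difference was 1.38. With a normexp background correction in place of the scanner software's own it was 0.11, while the median over all 199 tested miRNAs was then -0.45. Against normal tissue, radiation-induced carcinomas had about 4.84-fold more on the floored scale (log2 2.28 ± 0.51, SE). No normal tissue had the miRNA well above background, and radiation-induced carcinoma 3 was kept at the floor. The fold therefore depends on the floor and the background correction, and is no firm lower bound. This difference was log2 1.37 with normexp and 1.05 with a raised floor, against 4.24 with a lower floor.

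Between spontaneous carcinomas and normal tissue the difference was log2 0.33 ± 0.51 (SE of the model over all arrays), carried by spontaneous carcinomas 2, 5 and 6, the ones above the floor. That SE includes the spread of the radiation-induced carcinomas (SD 1.66), and the spontaneous ones had an SD of 0.48 with all normal tissues at the floor. The difference depends on the floor and the signal used. It was 1.60 for a lower floor, 1.55 for the total gene signal, 1.43 for each array's own limit and 1.27 for normexp. With normexp the median over all 199 tested miRNAs was 0.74. With unscaled signals the difference in miR-135b was 0.069, and with a raised floor it was 0. With slide as a block it was -0.13. Both comparisons with normal tissue use the same 7 normal arrays, and both comparisons with radiation-induced carcinomas use the same 8 arrays.

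**Figure D3:**
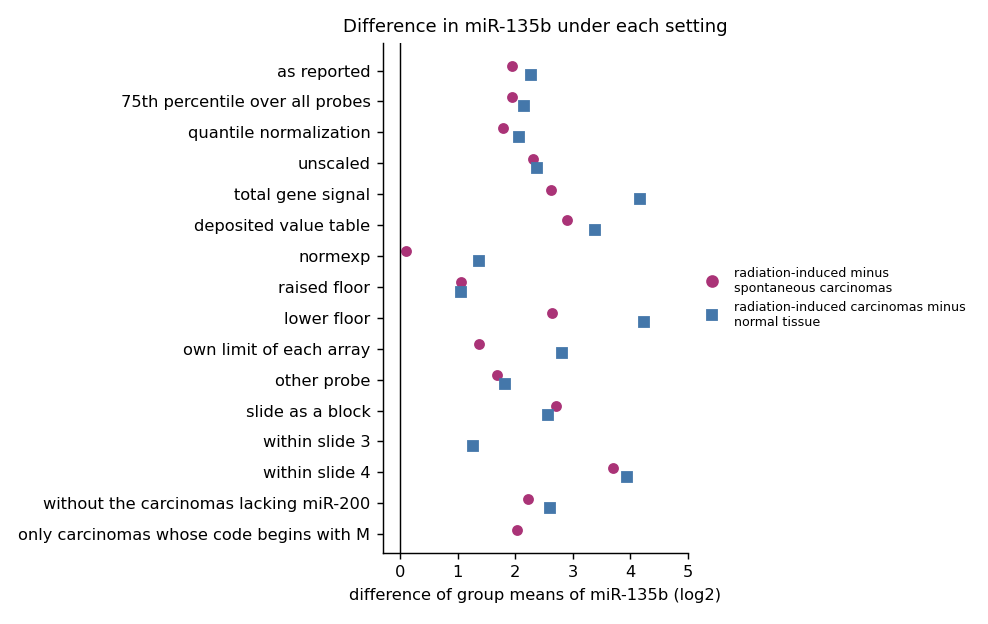
Difference of mean miR-135b levels (horizontal axis, log2) between radiation-induced and spontaneous carcinomas and between radiation-induced carcinomas and normal tissue, with 1 row for each way of processing the arrays. Every point lies above 0, from 0.11 with normexp to 3.70 within slide 4 for the carcinomas and from 1.05 with a raised floor to 4.24 with a lower floor against normal tissue.

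Single samples moved these differences little. Leaving out 1 array at a time gave 1.59 to 2.27 between the carcinomas, lowest without radiation-induced carcinoma 6 and highest without carcinoma 3, and 1.92 to 2.60 against normal tissue. Without both carcinomas that lacked miR-200 the differences were 2.22 and 2.60. All radiation-induced carcinomas carry animal codes that begin with M, as do 3 of the spontaneous ones, and against these 3 the difference was 2.03.

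The radiation-induced carcinomas divided by slide. The arrays lie on 4 slides by the barcodes in the file headers, and slide is used here as the batch. The 5 radiation-induced carcinomas on slide 3 had a mean level of 4.57 ± 1.102 (SD), from 3.30 to 5.77, and the 3 on slide 4 had 7.24 ± 0.73 (SD), from 6.61 to 8.05. Every carcinoma on slide 4 lay above every one on slide 3, with a difference of 2.68. The slides differed less in brightness, which was 886 to 2032 for the radiation-induced arrays of slide 3 and 729 to 1248 for those of slide 4. As different carcinomas lie on the slides, slide and carcinoma cannot be told apart here.

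Slide 4 is also the only one that holds both kinds of carcinoma. There the scaled signal was 97.4 to 264 in radiation-induced carcinomas 6 to 8 and 2.76 to 16.4 in spontaneous carcinomas 6 to 8, with 1.26 in the single normal tissue. The 2 kinds of carcinoma did not overlap on this slide, and the difference of their mean levels was 3.70. Against normal tissue the difference was 1.27 within slide 3 and 3.95 within slide 4. With slide as a block in the model over all arrays, the difference between the carcinomas was 2.71 and that against normal tissue 2.58.

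Within the radiation-induced carcinomas, no relation of miR-135b to array brightness or to the miR-200 family passed a test. Pearson's r with brightness was -0.23 (exact permutation p = 0.601) and Spearman's rho -0.14 (exact permutation p = 0.752) over 8 samples. Without carcinomas 2 and 6, which lay farthest from the median brightness, r was 0.28. With the mean level of the miR-200 family r was 0.54 (exact permutation p = 0.222) and rho 0.14 (exact permutation p = 0.752), but r became -0.35 without carcinoma 3 and -0.46 without carcinomas 3 and 5. That relation rests on carcinoma 3. All 4 tests were two-sided, and each had an adjusted p = 0.752 by Benjamini-Hochberg in the exact permutation tests.

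The relative with the same seed behaved differently. For miR-135a the array holds 3 probes with 20 spots in all, and they were detected on 1 of 23 arrays, that of radiation-induced carcinoma 3. There probe A_26_P00001356 had a scaled signal of 28.0 and probe A_26_P00002581 had 12.9, above that array's lowest signal well above background of 8.57, while the third probe had 1.88. On all other arrays the 3 probes stayed at or below 7.23. The carcinoma that gave no miR-135b signal was thus the one carcinoma with miR-135a, and it is also one of the carcinomas without miR-200. The star arm of miR-135a has 4 probes, detected on 0 of 23 arrays, and a star arm of miR-135b is not among the array's names. With so few detections, neither arm of miR-135a entered the tests.

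Radiation-induced carcinoma 3 had none of the 5 epithelial markers detected, which are the miR-200 family that set it apart. However, miR-205 of the basal epithelium was detected in all 8 radiation-induced carcinomas. The other mammary epithelial lineage miRNAs read here, miR-203, miR-375, miR-183, miR-96 and miR-182, were each detected in 7 of 8. Carcinoma 3 had all 3 endothelial markers detected. It also had all 5 smooth muscle and fibroblast and all 5 measured leukocyte miRNAs, as did every radiation-induced carcinoma. Spontaneous carcinoma 1, the other carcinoma without miR-200, was at the floor for miR-135b as well. It had 4 of 5 smooth muscle and fibroblast, 1 of 3 endothelial and 3 of 5 leukocyte markers detected. Mean miR-200 levels were 11.34, 12.12, 11.76 and 11.59 in spontaneous carcinomas 3, 4, 7 and 8, which stood at the floor for miR-135b, and 11.62 in radiation-induced carcinoma 6. All 5 epithelial markers were detected in every normal tissue. The part of epithelial content in the level of miR-135b was not tested.

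Among the other cell type lists, the smooth muscle and fibroblast markers also differed between the carcinomas. Of 5 tested, 2 rose in radiation-induced carcinomas by limma with Benjamini-Hochberg adjustment, where 18.1% of all 199 tested miRNAs passed (8.04% higher and 10.1% lower). These were miR-143, at log2 1.30 ± 0.42 (SE, adjusted p = 0.0367), and miR-145, at 1.36 ± 0.37 (SE, adjusted p = 0.0184) but -0.095 with normexp. Neither passed with slide as a block (limma adjusted p = 0.213 and 0.0921) or with the carcinomas fitted alone (limma adjusted p = 0.0967 and 0.0556). Their summed scaled signal ran from 5969 to 25124 in radiation-induced, from 2663 to 9496 in spontaneous and from 9470 to 14522 in normal samples. The 3 endothelial, 5 leukocyte, 3 striated muscle and 2 erythroid markers that were tested had none that passed between the carcinomas. One endothelial marker, miR-139-5p, was not detected in any spontaneous carcinoma. The part of these cell types in the level of miR-135b was not tested.

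The miRNAs whose levels ran most like that of miR-135b were miR-598-3p and miR-31. Pearson's r across the 23 arrays was computed with each of the 198 other tested miRNAs, and is given as a description with no p. The arrays share their scaling, the groups and, for many low values, the floor. The median r was 0.083 and the range -0.61 to 0.82. The 5 highest were miR-598-3p (0.82), miR-31 (0.70), miR-674-3p (0.61), miR-361 (0.59) and miR-194 (0.57). The 5 lowest were miR-333 (-0.61), miR-532-3p (-0.60), miR-196b (-0.59), miR-10b (-0.55) and miR-22* (-0.54).

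Within the 8 radiation-induced carcinomas, the order changed. There r was 0.87 for miR-598-3p and 0.79 for miR-31, but -0.0059 for miR-674-3p, 0.33 for miR-361 and 0.13 for miR-194. Without carcinoma 3 these were 0.80, 0.84, 0.46, 0.19 and -0.088 in the same order. The 3 carcinomas highest in miR-135b, miR-598-3p and miR-31 all lie on slide 4 and the other 5 on slide 3, so these correlations carry the split by slide, and each slide holds too few of the group for a value of its own. Without radiation-induced carcinomas 6 and 8, the samples farthest from the median of miR-135b, r over the remaining arrays was 0.64 for miR-598-3p and 0.58 for miR-31. The first 2 of the 5 highest also remained among the 5 highest by Spearman's rho, in the carcinomas alone and with unscaled signals, and these settings kept 2, 2 and 3 of the 5.

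The mean level of miR-598-3p was 4.84 ± 1.06 (SD, n = 8) in radiation-induced carcinomas, 4.23 ± 0.66 (SD, n = 8) in spontaneous ones and 3.33 in normal tissue. It stood at 6.53 in radiation-induced carcinoma 6, 5.73 in carcinoma 8 and 5.52 in carcinoma 7, the same 3 samples and the same order as for miR-135b. Unlike miR-135b it was detected in 5 of 8 spontaneous carcinomas and in 5 of 7 normal tissues. Spontaneous carcinoma 1 had 5.05 with miR-135b at the floor. In limma the difference of miR-598-3p was log2 0.61 ± 0.36 (SE, adjusted p = 0.238) between the carcinomas. It was 1.52 ± 0.37 (SE, adjusted p = 0.00499) between radiation-induced carcinomas and normal tissue. Normal levels ran only from the floor of 3.30 to 3.44, so the size of that difference depends on the floor.

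The oncogenic or tumour-suppressive miR-31, whose role depends on the tissue, was detected in most samples of every group. Its level was 11.05 in radiation-induced carcinoma 6, 9.68 in carcinoma 7 and 9.36 in carcinoma 8, and between 8.13 and 8.59 in carcinomas 1, 2, 4 and 5. In carcinoma 3 it stood at the floor, as did miR-135b. Unlike miR-135b, miR-31 was plentiful in normal tissue, with a mean of 7.06 ± 0.58 (SD, n = 7), against 8.38 ± 2.26 in radiation-induced and 6.78 ± 2.00 in spontaneous carcinomas (SD, n = 8 each).

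**Figure D4:**
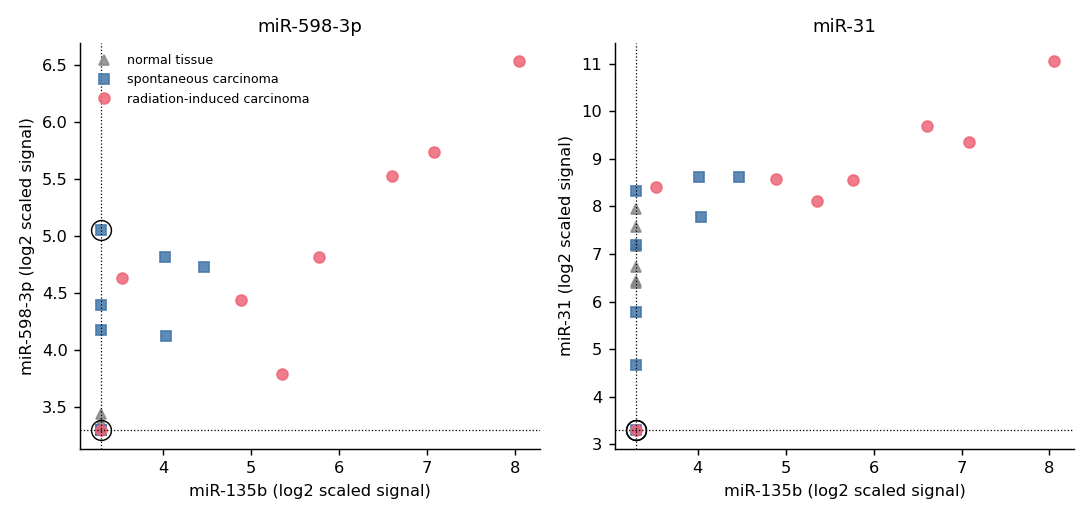
Level of miR-598-3p (left) and miR-31 (right) on the vertical axes against that of miR-135b on the horizontal axis, all as log2 scaled signal, with 1 point per array, dotted lines at the floor and black circles round the carcinomas without miR-200. Radiation-induced carcinomas 6, 7 and 8 are highest in both panels, and normal tissues, all at the floor for miR-135b, hold miR-31 near 7.06.

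Related miRNAs were read from lists chosen with earlier results of these data known, and miR-135b is left out of each. The lists hold miRNAs that share a reported target with miR-135b, were raised with it in colorectal tumours or belong to mammary epithelial lineages. Of the other miRNAs that target Apc, 3 of 5 on the array were tested, and 0 passed between the carcinomas by limma (18.1% of all tested). Of these 3, 0 passed between radiation-induced carcinomas and normal tissue (25.1% of all, 16.6% higher and 8.54% lower). Of these 3, 1 was lower in spontaneous carcinomas than in normal tissue (40.7% of all, 26.1% higher and 14.6% lower). That miRNA was miR-27a, of 1 cluster with miR-23a, at log2 -0.58 ± 0.19 (SE, adjusted p = 0.0196). The list's median was 0.24 between the carcinomas, against -0.025 over all tested miRNAs.

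Of the 5 miRNAs raised together with miR-135b in human colorectal tumours, which are miR-31, miR-96, miR-182, miR-183 and miR-21, all were tested and 0 passed in any of the 3 comparisons over all arrays. Their median was -0.38 between the carcinomas and 0.77 between radiation-induced carcinomas and normal tissue, where the median of all tested miRNAs was 0.14. The difference of miR-31 was log2 1.60 ± 0.86 (SE, adjusted p = 0.188) between the carcinomas. That difference did not pass with slide as a block (limma adjusted p = 0.338) or with the carcinomas fitted alone (limma adjusted p = 0.320). Against normal tissue miR-31 did not pass with slide as a block (limma adjusted p = 0.532). Without the carcinomas lacking miR-200 the difference between the carcinomas was 1.83 and passed (limma adjusted p = 0.0256). The difference against normal tissue then passed too (2.05, limma adjusted p = 0.00473). miR-182, of the miR-183 cluster, was at 1.19 ± 0.72 (SE, adjusted p = 0.238) in radiation-induced carcinomas against normal tissue, and at 1.71 (limma adjusted p = 0.000517) without these carcinomas. The null counts of this list rest on these 2 carcinomas. Without them, 1 of 5 was higher between the carcinomas, where 25 of all 199 tested miRNAs were higher (24.1% passed in either direction). In radiation-induced carcinomas 5 of 5 were higher than in normal tissue, where 67 of all 199 were (47.7% in either direction). In spontaneous carcinomas 3 of 5, miR-96, miR-182 and miR-183, were higher than in normal tissue, where 72 of all 199 were (51.3% in either direction). These 3 also belong to mammary epithelial lineages, and the 2 carcinomas were set aside for lack of epithelial miRNAs. Their calls without those carcinomas are therefore not independent of that choice.

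Of the other miRNAs that target Runx2, 7 of 11 on the array were tested. Between the carcinomas 1 of 7 passed (18.1% of all tested, 8.04% higher). Between radiation-induced carcinomas and normal tissue 1 of 7 passed (25.1% of all, 16.6% higher). Both times it was the p53-induced miR-34c. It was higher in radiation-induced than in spontaneous carcinomas, at log2 1.41 ± 0.39 (SE, limma adjusted p = 0.0186), and than in normal tissue, at 1.68 ± 0.40 (SE, limma adjusted p = 0.00435). With slide as a block the first of these did not pass (adjusted p = 0.184), nor did it with the carcinomas fitted alone (adjusted p = 0.0556), and the difference was 0.10 with normexp. miR-204, from an intron of the channel gene Trpm3, was at 2.31 ± 0.94 (SE, adjusted p = 0.0823) between the carcinomas, and miR-205, of the basal epithelium, was at 1.67 ± 0.81 (SE, adjusted p = 0.142). Neither miR-204 nor miR-205 passed there with slide as a block (limma adjusted p = 0.411 and 0.317). The same held with the carcinomas fitted alone (limma adjusted p = 0.167 and 0.266). Without the carcinomas lacking miR-200, miR-205 passed between the carcinomas too (1.47, limma adjusted p = 0.0146). Against normal tissue miR-204 (2.40), miR-205 (1.17) and miR-23a (-0.38) then passed as well, with limma adjusted p = 0.013, 0.0199 and 0.0182. In that setting 25 of all 199 tested miRNAs were higher between the carcinomas, and 67 were higher and 28 lower against normal tissue. Over all arrays, miR-23a was lower in spontaneous carcinomas than in normal tissue, at -0.74 ± 0.20 (SE, limma adjusted p = 0.00625). It was the only one of the 7 that passed there (40.7% of all, 14.6% lower).

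The 6 miRNAs of mammary epithelial lineages, miR-203, miR-205, miR-375, miR-183, miR-96 and miR-182, had none that passed in any of the 3 comparisons over all arrays, with a median of -0.40 between the carcinomas. The 2 carcinomas lacking miR-200 were set aside for lack of epithelial miRNAs. Counts of this epithelial list without them are therefore not independent of that choice. Without these 2 carcinomas, 1 was higher between the carcinomas, where 25 of all 199 tested miRNAs were higher (24.1% passed in either direction). Against normal tissue 5 were higher in radiation-induced carcinomas, where 67 of all 199 were (47.7% in either direction). In spontaneous carcinomas 3 were higher than in normal tissue, where 72 of all 199 were (51.3% in either direction). The 5 miR-200 members had none over all arrays either, with a median of 0.044 between the carcinomas. Without the 2 carcinomas, which were set aside on this very measure, all 5 were higher than in normal tissue in both kinds of carcinoma, for example miR-429 at log2 1.58 (limma adjusted p = 2.55e-05) and 1.53 (limma adjusted p = 1.72e-05), and 0 passed between the carcinomas. With the carcinomas fitted alone, limma called 0 of 199 miRNAs between the carcinomas, and 58 had an unadjusted p under 0.05.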

How the data were processed

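The authors deposited scanner files of 23 Agilent miRNA arrays of 1 colour, made with Agilent Feature Extraction 9.5.1.1 on a design annotated to rn4, per the file headers. Their processed signal is an intensity on a linear scale with each spot's background already subtracted and no scaling from array to array. The deposited table of values equals the scanner files' total gene signal, also a linear intensity, within 1% for 100% of values above its lowest value of 5, whose origin no source used here gives. Its column medians ran from 5 to 20.7, with no centring found.

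Of 7000 miRNA spots per array (953 control spots were left out), those without an outlier mark were averaged within each of 938 probes. A probe was detected where over 0.5 of its used spots were well above background, which held for 35.7% of probe values. Arrays were brought to 1 brightness, the 75th percentile of the 199 probes that every array detected, then floored at 9.82 and log2-transformed. The brightest probe on average stood for a miRNA. A miRNA entered the fit if 7 or more arrays detected one of its probes (199 did). The fit used limma 3.58.1 in R 4.3.3 (files read with the package data.table, version 1.17.8) on all 3 groups at once, with Benjamini-Hochberg adjustment within a comparison at 0.05. The fit was tested on simulated data. Arrays give no counts, and their number limits the precision. Where nothing says that samples came from separate animals, p-values measure only the spread between these samples.

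The miRNA, the lists and the tests were chosen with earlier results of these data known. Named miRNAs are miR-135b, its family, the 5 of highest and 5 of lowest r, and up to 4 tested members of each list with the smallest p. Arrays correlated at 0.607 to 0.993, and none repeats another. Alternatives covered scaling, background, signal summary, floor, probe, filter, slide and samples. The files have no mean signal column, so normexp (offset 50) used the median signal. Sequences are from RefSeq (GRCr8). Exact permutation tests used SciPy 1.17.1 in Python 3.11.15.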

Additional observations from a re-analysis of the deposited data

Results flagged for a closer look

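Within groups of 7 or 8 samples, 1 sample stood apart from its nearest neighbour by more than Dixon's 95% value in 7 of 42 groups checked, among the miRNAs most and least like miR-135b, its family and the miR-200 mean. Dixon's value is set to flag about 1 in 20 groups of untied, normally distributed values. Here many values tie at the floor and the groups share samples, so the count cannot be compared with that rate. The level of miR-135b itself was not among the 7. Radiation-induced carcinoma 3 gave 5 of them. It was low for miR-31 (3.30, with the nearest at 8.13) and for the mean of the miR-200 family (3.30, nearest 11.41). It was high for miR-10b (10.02, nearest 8.66), miR-22* (5.01, nearest 3.65) and miR-135a (4.81, nearest 3.30). Spontaneous carcinoma 1 was low for the miR-200 mean (3.30, nearest 11.34). Normal tissue 3 was high for miR-194 (3.59, nearest 3.37), close to the floor.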

How the results depend on the processing

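The difference in miR-135b between the carcinomas was above 0 under 14 of 14 alternatives (0.11 to 3.70), and that between radiation-induced carcinomas and normal tissue under 14 of 14 (1.05 to 4.24). That between spontaneous carcinomas and normal tissue was above 0 under 14 of 16 (-0.13 to 1.60), and at 0 with the raised floor. Between the carcinomas the difference moved by over 1 SD to 0.11 with normexp and 3.70 within slide 4. Radiation-induced against normal, it moved to 4.17 with the total gene signal, 3.38 in the deposited table, 1.05 with the raised floor, 4.24 with the lower floor and 3.95 within slide 4. Spontaneous against normal, it moved to 1.55 with the total gene signal, 1.60 with the lower floor and 1.43 with each array's own limit, a setting chosen after seeing the data. The own-limit setting holds the spontaneous arrays at higher limits than the normal ones. For the other moves the cause was not tested. Leaving out single arrays gave 1.59 to 2.27, 1.92 to 2.60 and 0.21 to 0.38 for the 3 differences.

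Spontaneous carcinomas with miR-135b detected went from 1 to 3 with the gene flag, 0 with both probes and 4 with at least 1 spot, and normal tissues from 0 to 1 with at least 1 spot. The correlation with brightness turned to 0.022 unscaled and 0.28 without the 2 farthest samples, and that with the miR-200 mean to -0.46 without the 2 farthest samples and -0.35 without the carcinomas lacking miR-200. Of the 5 miRNAs most like miR-135b, 2 remained by Spearman's rho, 2 in the carcinomas alone and 3 unscaled.

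Calls between the carcinomas went from 36 to 20 with quantile normalization, 99 unscaled, 104 with normexp, 99 in the deposited table, 23 without the detection filter, 7 with slide as a block and 0 with these groups alone (58 at an unadjusted p under 0.05). Radiation-induced against normal, 50 became 27 unscaled, 25 in the deposited table, 28 with slide as a block, 95 without the carcinomas lacking miR-200 and 76 with these groups alone. Spontaneous against normal, 81 became 144 with normexp. The split into higher and lower moved from 16 and 20 between the carcinomas to 29 and 5 with all probes, 14 and 6 with quantile, 20 and 8 with the total gene signal (added after seeing the data), 99 and 0 unscaled and 11 and 93 with normexp. Radiation-induced against normal it moved from 33 and 17 to 16 and 19, 14 and 21, 4 and 23 unscaled and 43 and 10 with normexp. Spontaneous against normal it moved from 52 and 29 to 25 and 57, 29 and 43, 4 and 112 unscaled and 122 and 22 with normexp. Unscaled, the median of all 199 miRNAs shifted to 0.81, -0.21 and -0.98 in the 3 comparisons, and miR-135b was at 2.31, 2.38 and 0.069.

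No paired analysis was possible because the labels number only the normal tissues, so the groups share no replicate numbers. In 5 of 8 spontaneous carcinomas and all 7 normal tissues miR-135b lay at the floor of 9.82 before the log. The lowest signal well above background was 3.90 to 9.56 on normal arrays, so the normal levels are bounds. It was 12.0 to 29.7 on spontaneous arrays, above the floor, so the floored level is no upper bound for those 5 carcinomas.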
